A study of Mus musculus with 38 samples.

Results

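The Timm and Tomm genes encode the translocases of the inner (TIM) and outer (TOM) mitochondrial membranes, and 23 of them were followed here in mouse left ventricle. They were chosen by name and a count threshold: of 29564 gene rows in the deposited tables, 25 had a symbol beginning with Timm or Tomm, and 23 of these held at least 10 counts in at least 8 libraries. All 23 in fact reached 10 counts in all 38 libraries. The rows left out were Timm8a2, with 17 counts over all libraries together, and Tomm20l, with 0 counts.

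RNA was sequenced from left ventricle homogenates of 38 wild-type C57BL6 mice, 1 library per mouse. Of these, 8 were non_failing mice that received vehicle, and the others carried a model of HFpEF, heart failure in which the ejection fraction is preserved. Within the model, 8 mice received vehicle (HFpEF+Veh), 11 received TYA-018, a small-molecule inhibitor of the cytoplasmic deacetylase HDAC6 (HFpEF+TYA-018), and 11 received empagliflozin, an inhibitor of the renal glucose transporter SGLT2 (HFpEF+SGLT2i). Model mice ate a high-fat diet and received L-NAME, a blocker of nitric oxide synthases, and the series title gives the treatment as 3 months. The study's text gives a shorter treatment time. The labels list every mouse as female and no age, whereas the study's methods name male C57BL/6J mice. The questions were whether the import genes differed in the disease model, and whether either drug was accompanied by a difference.

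Nearly all mitochondrial proteins are made in the cytosol and must be imported. The TOM complex is the common entry gate: its receptors Tomm20, Tomm22 and Tomm70a recognise precursors, and Tomm40 forms the pore, with Tomm5, Tomm6 and Tomm7 as small partner subunits. Behind it, the small TIM chaperones (Timm8a1, Timm8b, Timm9, Timm10 and Timm13) carry hydrophobic precursors across the intermembrane space, the TIM22 complex inserts metabolite carriers into the inner membrane, and the TIM23 complex passes proteins with a cleavable presequence into the matrix, where Timm44 tethers the import motor. Cardiac muscle is dense in mitochondria, and most of the enzymes of its oxidative metabolism enter through these gates.

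Promoter sequences are shown for 6 members: Tomm5, Timm22 and Timm13, which were called in a comparison below, and Timm23, Tomm22 and Tomm70a, whose 200 bases before the start hold a match to the ETS motif bound by GABPA, a known activator of nuclear genes for mitochondrial proteins. The sequences come from RefSeq (GRCm38.p6), run 5′ to 3′ on the gene's strand and end at the last base before the start of transcription in that table. Capitals mark a match to CCGGAAG (ETS) or GCATGCGC (part of the site of NRF1, another such activator), on either strand.
Tomm5: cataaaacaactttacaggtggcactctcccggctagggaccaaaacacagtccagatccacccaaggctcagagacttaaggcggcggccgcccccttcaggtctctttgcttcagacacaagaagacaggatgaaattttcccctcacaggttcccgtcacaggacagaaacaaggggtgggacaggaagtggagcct
Timm22: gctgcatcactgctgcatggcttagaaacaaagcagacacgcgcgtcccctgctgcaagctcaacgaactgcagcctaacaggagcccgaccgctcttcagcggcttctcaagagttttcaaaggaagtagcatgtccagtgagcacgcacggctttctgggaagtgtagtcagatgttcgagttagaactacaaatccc
Timm13: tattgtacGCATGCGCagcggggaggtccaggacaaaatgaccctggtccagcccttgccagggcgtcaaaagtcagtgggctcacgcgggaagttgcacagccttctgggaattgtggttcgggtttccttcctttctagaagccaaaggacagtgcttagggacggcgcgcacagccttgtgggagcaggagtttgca
Timm23: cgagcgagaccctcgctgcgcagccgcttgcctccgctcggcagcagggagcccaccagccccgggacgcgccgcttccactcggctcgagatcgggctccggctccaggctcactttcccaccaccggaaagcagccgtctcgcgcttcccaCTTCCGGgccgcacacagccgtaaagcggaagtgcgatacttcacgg
Tomm22: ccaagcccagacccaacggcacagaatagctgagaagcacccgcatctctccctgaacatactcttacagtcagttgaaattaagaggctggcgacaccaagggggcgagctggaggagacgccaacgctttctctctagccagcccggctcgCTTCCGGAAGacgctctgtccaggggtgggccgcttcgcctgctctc
Tomm70a: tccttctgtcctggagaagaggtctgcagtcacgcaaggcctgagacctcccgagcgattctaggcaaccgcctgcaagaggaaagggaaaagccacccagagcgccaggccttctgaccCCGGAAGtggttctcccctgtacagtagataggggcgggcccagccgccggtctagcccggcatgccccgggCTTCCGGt

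These windows lie at chr4:45108114-45108313 (minus strand) for Tomm5, chr11:76406725-76406924 (plus) for Timm22, chr10:80900970-80901169 (minus) for Timm13, chr14:32201892-32202091 (minus) for Timm23, chr15:79670668-79670867 (plus) for Tomm22 and chr16:57121514-57121713 (plus) for Tomm70a. A promoter window (250 bases before to 50 after the start) was found for 20 of the 23 members, and Tomm40l, Timm21 and Tomm7 had no entry. CCGGAAG, read on both strands, was present in 8 of the 20, namely Timm10, Timm10b, Timm23, Timm8b, Timmdc1, Tomm22, Tomm34 and Tomm70a. The same letters occurred in 9.93% of the 27025 genes of the table and in 18.4% of the 10280 genes that also held at least 10 counts in 8 libraries. In Tomm22 a pair of matches overlapped on opposite strands, with their first bases 47 and 44 bases before the start. GCATGCGC occurred in 1 member, Timm13 (5.73% of the 10280 genes), AAGATGGCG, the motif of YY1, in 1, Timm50 (3.30%), and TCAAGGTCA, the motif of the estrogen-related receptors, in 1, Timm8b (0.340%). Neither Tomm5 nor Timm22 held any of the 4 motifs. The median GC content of the 20 windows was 59.5%, beside 60.7% for the 10280 genes. These matches are descriptions of letters in a window and were not tested.

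The libraries held 21451631 to 59280407 counts. All 8 ventricular cardiomyocyte markers were detected in every library, with a summed level of 18341 to 34263 TPM (transcripts per 1000000, a unit that accounts for transcript length), while the 4 atrial markers summed to at most 8.24 TPM. Library V2523 of the HFpEF+Veh group stood apart with hepatocyte markers summing to 1124 TPM, against a vehicle median of 2.17. Every vehicle comparison of the Timm and Tomm genes was therefore repeated without it. All 8 non_failing libraries also held hepatocyte markers (15.4 to 291.1 TPM, median 46.7), against at most 5.12 TPM in the drug groups. Libraries V2571 and V2572 of the HFpEF+SGLT2i group had the highest shares of mitochondrially encoded transcripts of all libraries (39.0 and 39.5% of counts, group median 31.7) and the lowest cardiomyocyte sums (18341 and 20647 TPM, group median 26277). Endothelial markers in the same libraries summed to 237.7 and 195.1 TPM (group median 145.1). In bulk tissue, fewer cells of a type and less RNA per cell cannot be told apart. P-values here measure the spread between individual mice.

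Compared by TPM, the members spanned a wide range of abundance. Timm8b was highest (120.3 ± 16.7 TPM, SD over 38 mice), followed by Tomm5 (117.1 ± 18.1) and Timm23 (108.4 ± 24.0), 3 neighbours whose spreads overlapped. Timm21, which links the TIM23 complex to the respiratory chain, was lowest at 3.19 ± 0.719 TPM.

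Within the TOM complex the small subunits outranked the pore and receptors. After Tomm5 came Tomm6 (81.9 ± 6.56 TPM) and Tomm7 (54.0 ± 5.93 TPM). The pore gene Tomm40 stood at 31.7 ± 3.98 TPM and its paralogue Tomm40l at 19.0 ± 2.53 TPM. Of the receptors, Tomm22 (35.7 ± 6.03 TPM) exceeded Tomm20 (14.8 ± 1.91 TPM) and Tomm70a (7.75 ± 1.75 TPM), which docks chaperone-bound carrier precursors. Tomm34, a cytosolic cochaperone of import and not a subunit of the complex, was at 8.43 ± 1.24 TPM.

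Among the small TIM chaperones, Timm10 (54.0 ± 8.22 TPM) followed Timm8b, and Timm13 (22.1 ± 2.70), Timm9 (12 ± 2.19) and Timm8a1 (10.3 ± 1.65) were lower. Of the TIM22 complex, Timm10b had 33.5 ± 4.08 TPM and the channel gene Timm22 had 12.9 ± 2.49 TPM. For the TIM23 complex, the channel genes Timm23 and Timm17a (57.8 ± 18.5 TPM) lay above the presequence receptor Timm50 (22.7 ± 2.12) and above Timm17b (11.6 ± 1.25), the X-linked paralogue of Timm17a. Timm44 stood at 28.8 ± 3.01 TPM. Timmdc1, which carries a TIM name but is a complex I assembly factor, stood at 16.5 ± 2.34 TPM. In TPM, Timm17a had the widest relative spread of these genes, from 23.1 in HFpEF+TYA-018 V2550 to 108.2 in HFpEF+SGLT2i V2562. Its effective transcript length, which enters TPM, also varied most among the members, from 781.1 to 1441 bases. In normalized CPM, a count measure described below, it ran from 46.1 in HFpEF+SGLT2i V2571 to 97.4 in V2562.

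**Figure D1:**
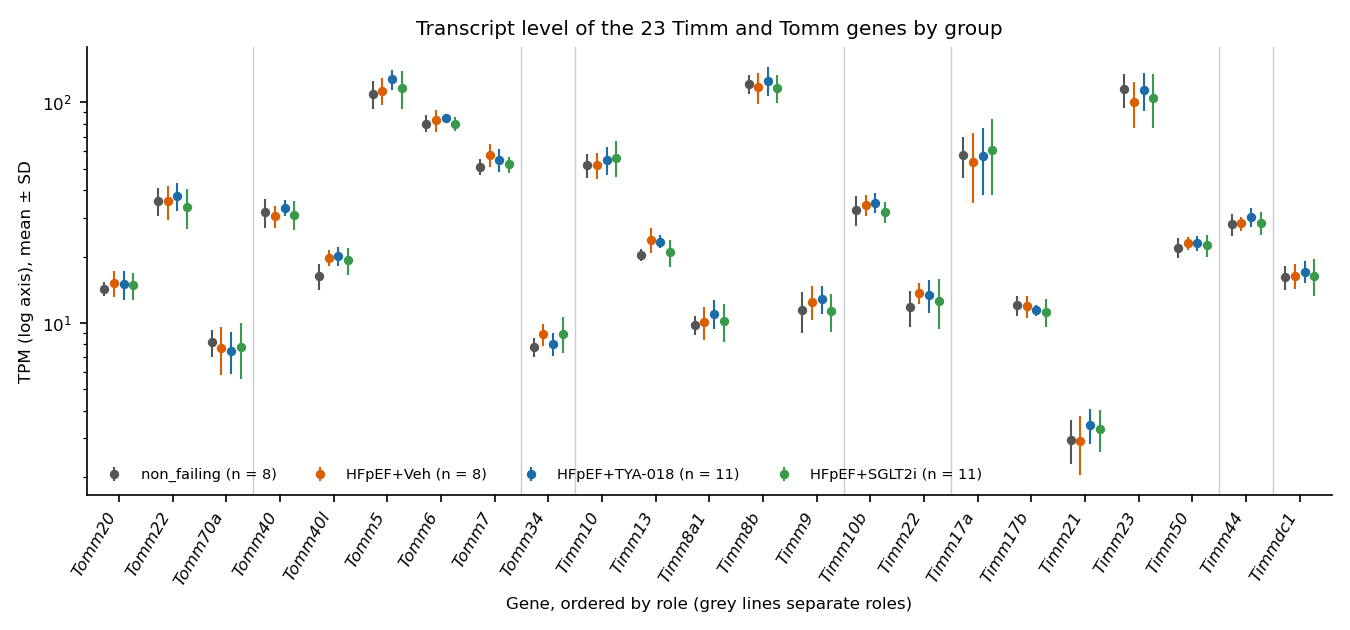
Mean TPM (log axis) of each of the 23 genes in the 4 groups, with error bars of 1 SD over the 8 or 11 mice and grey lines between roles. The genes differ from one another far more than the groups do, from about 3 TPM for Timm21 to above 100 TPM for Timm8b, Tomm5 and Timm23.

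Differences between groups were small beside these levels. They were estimated as log2 fold changes on counts scaled by TMM factors, which set the bulk of genes equal between libraries, and tested with edgeR's quasi-likelihood test across 13765 genes. Genes with an adjusted p under 0.05 are termed called. Values per mouse are given as normalized CPM, counts per 1000000 scaled by the same factors, the scale of that test. TPM has no such scaling, so the order of group means in TPM can differ from that in CPM. By mean CPM, 21 of the 23 members were highest in HFpEF+TYA-018, the exceptions being Tomm70a (non_failing) and Tomm34 (HFpEF+SGLT2i). By mean TPM the exceptions were more: Timm10, Timm13, Timm17a, Timm17b, Timm22, Timm23, Tomm20 and Tomm7 were also highest in another group. The lowest mean CPM fell in HFpEF+Veh for 14 members, in non_failing for 6 (Timm13, Timm22, Tomm20, Tomm34, Tomm40l and Tomm7) and in HFpEF+SGLT2i for 3 (Timm10b, Timm9 and Tomm22). By mean TPM, HFpEF+Veh was lowest only for Timm17a, Timm21, Timm23 and Tomm40. These ranks carry no test, and most neighbouring means lay within 1 SD of each other.

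**Figure D2:**
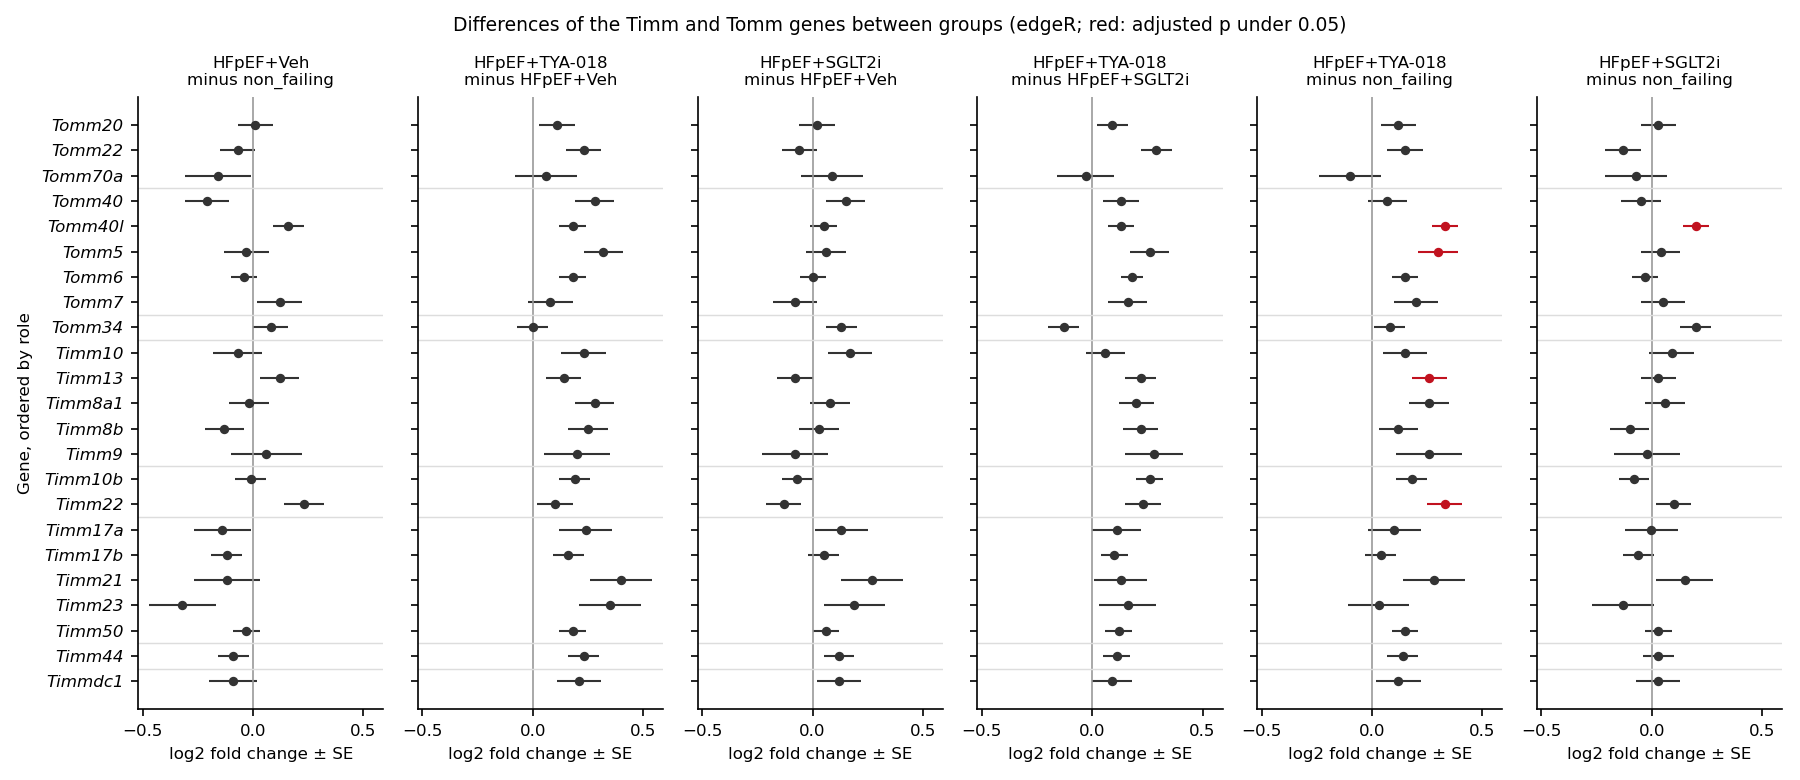
Log2 fold change with its standard error for each of the 23 genes in the 6 comparisons, ordered by role, with calls in red. The points of HFpEF+TYA-018 minus HFpEF+Veh lie at or to the right of 0 for every gene, without a call, and the 5 red points all lie in the comparisons with non_failing.

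In the disease model itself, HFpEF+Veh against non_failing, none of the 23 members was called by edgeR, where 3.15% of all genes were. Log2 fold changes ran from -0.32 to 0.23 with a median of -0.04 (all genes 0.01), and 7 of 23 were above 0. This count depended on the scaling. Under library size alone, where the median of all genes was 0.08, 6 members turned sign. Under limma on log2(TPM + 1), where it was 0.06, 7 did. At an unadjusted p under 0.05 there were 4 members (17.4%, against 15.9% of all genes), DESeq2 called 0 (2.85% of all genes), and limma on log2(TPM + 1) called 1, Tomm40l (3.24% of all genes). The 4 were split by direction: Timm22 (log2 fold change 0.23 ± 0.09 SE, adjusted p = 0.162) and Tomm40l (0.16 ± 0.07, adjusted p = 0.228) had higher estimates, and Tomm40 (-0.21 ± 0.10, adjusted p = 0.304) and Timm23 (-0.32 ± 0.15, adjusted p = 0.309) had lower ones. All 5 members of the TIM23 complex had estimates below 0.

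Timm23 at 96.1, 122.9 and 165.5 CPM (lowest, median, highest) in non_failing compared with 71.4, 94.4 and 133.2 CPM in HFpEF+Veh. Of the 8 vehicle mice, 4 lay below every non_failing mouse and 2 lay above the non_failing median, with V2523 the highest. Without V2523 the vehicle mean of Timm23 moved from 101.5 ± 22.4 (SD, n = 8) to 96.9 ± 19.8 CPM (SD, n = 7). V2523 was the highest vehicle library for 10 of the 23 members and the lowest for 1, Tomm34. With it left out, still 0 members were called against non_failing (4.49% of all genes were), 3 had an unadjusted p under 0.05 (19.0% of all genes did), and the median log2 fold change was -0.07. Fibroblast markers, mostly Dcn, summed to a median of 292.4 TPM in vehicle mice and 237.9 in non_failing mice, and cardiomyocyte markers to 26159 and 31376 TPM. The part of such differences in the member levels was not tested.

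With TYA-018 in HFpEF mice, nearly all of the import genes had higher estimates, by small amounts and with no call by edgeR. Against HFpEF+Veh, 22 of 23 members had a log2 fold change of 0.06 to 0.40, and Tomm34 had 0.0005. The median was 0.20, beside -0.01 for all genes, of which 48.2% were above 0. By edgeR 0 members were called, where 1.93% of all genes were, although 15 members (65.2%, against 17.5% of all genes) had an unadjusted p under 0.05. DESeq2 called 3 of them, Timm44, Tomm5 and Tomm6, beside 524 of 21871 genes in all. Since the members covary between mice, as described below, these counts are not 23 independent observations.

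The member nearest to the threshold was Tomm5, the small subunit that binds the TOM pore (chr4:45105208-45108114, minus strand, GRCm38). Its level was 52.0, 59.8 and 70.0 CPM (lowest, median, highest) in HFpEF+Veh and 63.2, 75.9 and 97.4 CPM in HFpEF+TYA-018. The groups overlapped, but 8 of 11 treated mice exceeded the highest vehicle mouse. The log2 fold change was 0.32 ± 0.09 SE (adjusted p = 0.0609 by edgeR). Leaving out any 1 of V2501, V2510, V2521, V2550, V2570, V2571 or V2572 brought it under the threshold (0.0411 to 0.0499), and leaving out V2530 raised it to 0.132. Under library size alone and under limma on log2(TPM + 1) the log2 fold change was 0.19 (adjusted p = 0.181 and 0.218). With the effective transcript length in each library taken into account it was 0.31 (adjusted p = 0.121 by edgeR).

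Timm44, the tether of the import motor (chr8:4259731-4275913, minus strand), came next. Vehicle mice held 52.1, 61.5 and 64.1 CPM and treated mice 59.5, 71.3 and 77.6 CPM, with 8 of 11 treated mice above every vehicle mouse. The log2 fold change was 0.23 ± 0.07 SE (adjusted p = 0.0660), and it was called without V2570 or without V2571 (adjusted p 0.0334 to 0.0387). Without V2530 the adjusted p was 0.149. The log2 fold change was 0.10 under library size alone (adjusted p = 0.398) and under limma on log2(TPM + 1) (0.340). For Tomm6, which stabilises the TOM complex (chr17:47686646-47688386, minus strand), vehicle mice held 34.7, 44.1 and 49.3 CPM and treated mice 45.3, 50.4 and 53.7 CPM. The treated mice were narrow in range and 7 of 11 exceeded all vehicle mice (log2 fold change 0.18 ± 0.06 SE, adjusted p = 0.0819). The adjusted p was 0.0400 without V2521 and 0.169 without V2530. Under library size alone and under limma on log2(TPM + 1) the log2 fold change was 0.05 (adjusted p = 0.626 and 0.674).

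In the remaining roles the estimates differed between members. Among the receptors, Tomm22 (chr15:79670861-79673400, plus strand) held 42.1, 47.8 and 55.1 CPM in vehicle mice and 47.6, 56.2 and 63.7 CPM in treated mice, where 6 of 11 lay above the vehicle range (log2 fold change 0.23 ± 0.08 SE, adjusted p = 0.118). Tomm20 and Tomm70a had smaller estimates (0.11 ± 0.08 and 0.06 ± 0.14). Of the small TIM chaperones, Timm8b (chr9:50603910-50605320, plus strand) held 39.9, 48.8 and 58.4 CPM in vehicle and 43.9, 58.0 and 75.8 CPM in treated mice (0.25 ± 0.09, adjusted p = 0.112), with 4 of 11 treated mice above the vehicle range. Timm8a1, its paralogue, had 0.28 ± 0.09 (adjusted p = 0.0794) and was called without V2550 (0.0458), whereas without V2530 the adjusted p was 0.171. Its log2 fold change was 0.15 under library size alone and 0.13 under limma on log2(TPM + 1).

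The TIM23 complex held both the largest estimate and some of the smaller ones: Timm50 had 0.18 ± 0.06 and Timm17b 0.16 ± 0.07, whereas Timm21 had 0.40 ± 0.14 (adjusted p = 0.105) and Timm23 (chr14:32180162-32201898, minus strand) 0.35 ± 0.14 (adjusted p = 0.197). The Timm17b estimate turned below 0 under limma on log2(TPM + 1), and its mean TPM was 11.4 in treated and 11.9 in vehicle mice. Timm23 in treated mice ran from 79.1 through a median of 128.1 to 161.0 CPM, overlapping the vehicle range in 6 of 11 mice. Timmdc1 held 17.4, 21.6 and 26.2 CPM in vehicle and 21.1, 26.3 and 31.2 CPM in treated mice (0.21 ± 0.10, adjusted p = 0.269). The TIM22 component Timm10b held 17.4, 21.3 and 23.7 CPM in vehicle and 19.6, 23.3 and 27.8 CPM in treated mice (0.19 ± 0.07, adjusted p = 0.122). Timm22, the channel gene of that complex, had 0.10 ± 0.08 (adjusted p = 0.544).

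Tomm34 did not share this direction. It held 13.9, 16.9 and 19.9 CPM in vehicle and 15.2, 17.0 and 20.9 CPM in treated mice, with medians almost equal.

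Which libraries were included mattered for this comparison. Without V2523 the median of the members was again 0.20, 22 of 23 were above 0, 16 had an unadjusted p under 0.05 (19.6% of all genes did) and 1, Timm21, was called (log2 fold change 0.51, adjusted p = 0.0451), beside 1.42% of all genes. Leaving out V2571 and V2572, which enter this contrast only through scaling, filtering and the shared estimate of the spread, gave 4 calls (Timm44, Timm50, Timm8a1 and Tomm5), beside 3.15% of all genes. Leaving out V2523, V2571 and V2572 together gave 9 (Timm21, Timm44, Timm50, Timm8a1, Timm8b, Tomm22, Tomm40, Tomm40l and Tomm5), beside 4.22% of all genes. Both of these sets were chosen after the values had been seen. Scaling by library size alone moved the median of all genes to -0.14 and that of the members to 0.07, so that 23 of 23 members still lay above the median of all genes while 18 of 23 lay above 0, and under limma on log2(TPM + 1) 16 of 23 did. Summed fibroblast markers, carried mostly by Dcn, had medians of 225.9 TPM in HFpEF+TYA-018 and 292.4 TPM in HFpEF+Veh. The sum was 565.4 TPM in V2530, of which Dcn made up 515.5 TPM. Endothelial markers had medians of 132.3 TPM in HFpEF+TYA-018 and 164.5 TPM in HFpEF+Veh. The part of these markers in the estimates was not tested.

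Empagliflozin was accompanied by smaller and mixed estimates. Against HFpEF+Veh, 0 of 23 members were called by edgeR, beside 0.85% of all genes, 0 had an unadjusted p under 0.05 (10% of all genes did), and DESeq2 called 0 (1.05% of all genes). Log2 fold changes ran from -0.13 for Timm22 to 0.27 for Timm21 (± 0.14 SE, adjusted p = 0.511), with a median of 0.06 and 17 of 23 above 0. That count depended on the scaling. Under library size alone, where the median of all genes was -0.07, 7 of the 23 turned sign, and under limma on log2(TPM + 1) 5 did. Tomm5 had 0.06 ± 0.09, Tomm40l 0.05 ± 0.06 and Timm44 0.12 ± 0.07. Without V2523 the median was 0.07, with 0 calls, where 2 of 13801 genes were called, and 1 unadjusted p under 0.05 (10.5% of all genes had one). Without V2571 and V2572 the median was 0.10 and 8 members had an unadjusted p under 0.05 (18.6% of all genes did), with 0 calls beside 2.33% of all genes. Without all 3 libraries 1 member, Timm21, was called, beside 2.18% of all genes.

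Set against each other, the drugs did not differ by a call in any gene: 0 of 23 members and 0% of all genes passed by edgeR, with 11 members (47.8%, against 13.2% of all genes) at an unadjusted p under 0.05. DESeq2 called 3 members, Timm10b, Tomm22 and Tomm6, and 184 genes in all (0.841%). The members' median difference, HFpEF+TYA-018 minus HFpEF+SGLT2i, was 0.13 and 21 of 23 were above 0, with Tomm34 (-0.13) and Tomm70a (-0.03) below. Summed erythroid markers had medians of 6868 TPM in HFpEF+TYA-018 and 3715 TPM in HFpEF+SGLT2i. Their part in these differences was not tested.

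Timm10b (chr7:105640056-105643637, plus strand), a small TIM bound to the TIM22 complex, had the lowest p. Its level was 17.0, 20.0 and 22.8 CPM with empagliflozin and 19.6, 23.3 and 27.8 CPM with TYA-018, where 7 of 11 mice exceeded every empagliflozin mouse (log2 fold change 0.26 ± 0.06 SE, adjusted p = 0.0975 by edgeR). Tomm22 followed with 36.0, 46.6 and 55.7 CPM against 47.6, 56.2 and 63.7 CPM (0.29 ± 0.07, adjusted p = 0.0980). All 11 TYA-018 mice lay above the empagliflozin mean for Tomm22 and for Tomm6 (0.18 ± 0.05, adjusted p = 0.110), though the ranges overlapped.

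V2571 or V2572 was the lowest empagliflozin library for 16 of the 23 members, and the median deviation of the members from their means over all mice was -0.42 and -0.36 (log2) there, against a group median of 0.02. Without both, the median difference between the drugs was 0.07, 18 of 23 members were above 0, 6 had an unadjusted p under 0.05 (11.8% of all genes did) and 0 were called, as in all genes (0%).

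Relative to non_failing mice, 4 of 23 members were called higher in HFpEF+TYA-018 and 0 lower, beside 7.39% of all genes called. They were Tomm40l, Timm22, Timm13 and Tomm5. The median log2 fold change of the members was 0.15 (all genes 0.01), 22 of 23 were above 0 and 10 had an unadjusted p under 0.05 (43.5%, against 22.0% of all genes). Cell-type markers differed between these groups too. Summed cardiomyocyte markers had medians of 31376 TPM in non_failing and 27572 TPM in HFpEF+TYA-018, and erythroid markers 3108 and 6868 TPM. Hepatocyte markers ran from 15.4 to 291.1 TPM in non_failing and from 0.259 to 1.80 TPM with TYA-018, and the brown adipocyte list, carried by Cidea with Ucp1 at 0 in 28 of 38 libraries, from 13.2 to 18.7 and from 24.0 to 35.5 TPM, without overlap in either. Their part in the calls was not tested.

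Tomm40l, the paralogue of the TOM pore (chr1:171216011-171222514, minus strand), had the lowest adjusted p of the members over the 6 comparisons. It held 42.9, 50.2 and 55.9 CPM in non_failing, 50.3, 54.9 and 60.9 in HFpEF+Veh, 55.4, 61.2 and 69.0 in HFpEF+TYA-018 and 44.1, 56.0 and 66.2 in HFpEF+SGLT2i. With TYA-018, 10 of 11 mice exceeded the highest non_failing mouse. The log2 fold change was 0.33 ± 0.06 SE (adjusted p = 0.000598 by edgeR), it passed in each of the 38 leave-one-out fits and under each of the other settings tried, and its adjusted p was at most 0.0168.

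Timm22, the channel of the carrier translocase (chr11:76406952-76416292, plus strand), held 13.6, 17.3 and 19.3 CPM in non_failing, 17.0, 19.8 and 22.2 in HFpEF+Veh, 18.7, 21.3 and 25.3 in HFpEF+TYA-018 and 13.6, 18.7 and 21.5 in HFpEF+SGLT2i. Of the TYA-018 mice, 9 of 11 lay above the non_failing range, and 5 of 8 vehicle mice did too. The log2 fold change was 0.33 ± 0.08 SE (adjusted p = 0.00907) and was called in all 38 fits without 1 library. It was 0.22 with an adjusted p of 0.283 when the effective transcript length in each library was taken into account, a length that ranged from 917.9 to 1341 bases for Timm22, 0.27 (0.0606) under scaling by library size alone and 0.19 (0.361) under limma on log2(TPM + 1).

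Timm13 (chr10:80899450-80900969, minus strand), which pairs with Timm8 proteins in the intermembrane space, held 23.5, 27.8 and 30.0 CPM in non_failing, 22.3, 30.9 and 32.7 in HFpEF+Veh, 27.8, 34.1 and 38.2 in HFpEF+TYA-018 and 20.2, 28.7 and 34.2 in HFpEF+SGLT2i. TYA-018 mice exceeded the non_failing range in 9 of 11 cases (log2 fold change 0.26 ± 0.08 SE, adjusted p = 0.0389). The call was lost without any 1 of V2503, V2508, V2510, V2547, V2549, V2551, V2552, V2555 or V2559 (adjusted p 0.0521 to 0.0954), and under scaling by library size alone (0.129) and limma on log2(TPM + 1) (0.176).

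Tomm5 held 45.4, 63.7 and 77.1 CPM in non_failing, with V2510 lowest and V2501 highest, and 46.7, 66.3 and 76.6 CPM in HFpEF+SGLT2i. Only 3 of 11 TYA-018 mice exceeded V2501, so its groups overlapped most among the 4 (log2 fold change 0.30 ± 0.09 SE, adjusted p = 0.0464). Among the other settings, DESeq2 kept the call (0.0310), but it was lost with transcript lengths taken into account (0.152), under scaling by library size alone (0.112) or by DESeq2 size factors (0.0515), without a filter on low counts (0.0655), with only the 2 groups compared (0.0531) and under limma on log2(TPM + 1) (0.123). It was also lost in 19 of the 38 fits without 1 library (adjusted p 0.0504 to 0.122). These left out V2502, V2503, V2504, V2507, V2508, V2509 or V2510 of non_failing, V2527 or V2529 of HFpEF+Veh, V2546, V2547, V2548, V2549, V2551, V2552, V2555 or V2559 of HFpEF+TYA-018, and V2561 or V2573 of HFpEF+SGLT2i. Timm8a1, a small TIM chaperone, had 0.26 ± 0.09 (adjusted p = 0.0636) and was called without V2550, V2562, V2570 or V2571, and Timm10b (0.18 ± 0.07, adjusted p = 0.102) without V2548.

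**Figure D3:**
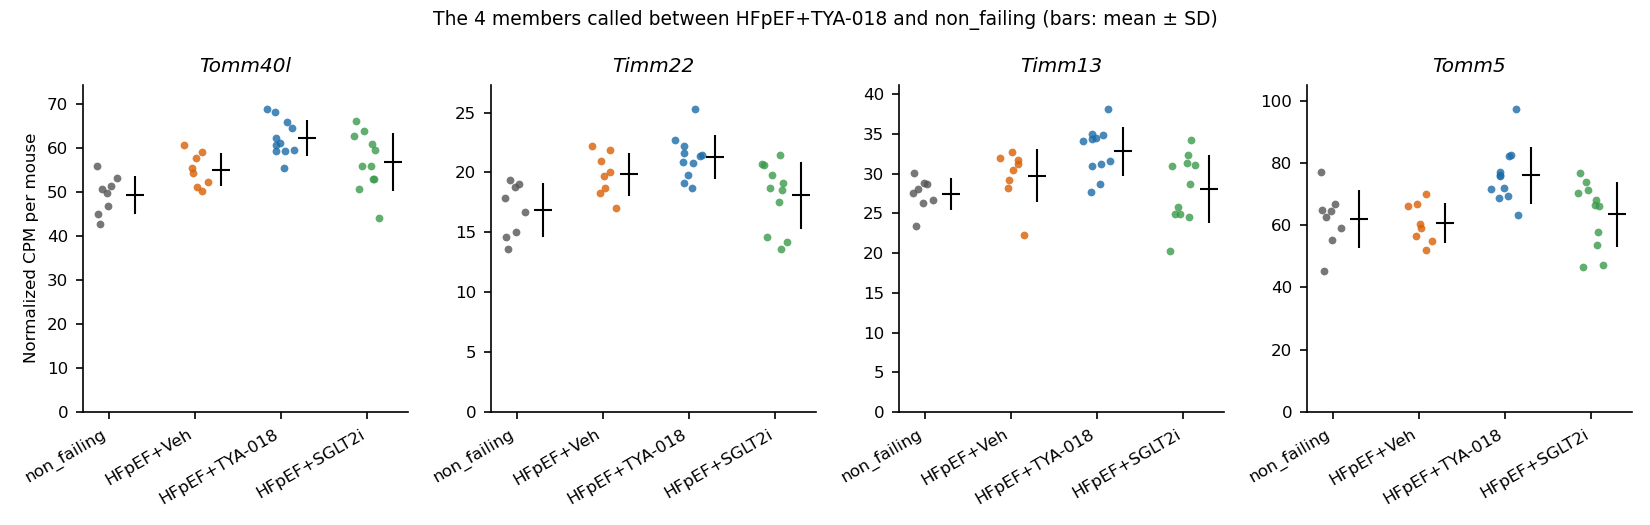
Normalized CPM of Tomm40l, Timm22, Timm13 and Tomm5 in each of the 38 mice by group, with the mean and 1 SD beside the points and axes from 0. In Tomm40l, 10 of 11 HFpEF+TYA-018 mice lie above the highest non_failing mouse, whereas in Tomm5 3 of 11 do.

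In HFpEF+SGLT2i against non_failing, 1 member was called, Tomm40l, where 6.45% of all genes were. Its log2 fold change was 0.20 ± 0.06 SE (adjusted p = 0.0437), with 10 of 11 mice above the non_failing mean and 7 above the non_failing range. V2571 was the lowest at 44.1 CPM, and without V2571 and V2572 the log2 fold change was 0.26 (adjusted p = 0.00453). The call was lost under DESeq2 size factors in edgeR (0.0553), scaling by library size alone (0.131), no filter on low counts (0.0627) and with only the 2 groups compared (0.120), and kept under DESeq2 (0.0266), limma on log2(TPM + 1) (0.0165) and a length offset (0.0401). Leaving out any 1 of V2502, V2504, V2507, V2508, V2509 or V2510 of non_failing, V2548, V2555 or V2559 of HFpEF+TYA-018, or V2561, V2562, V2564, V2565, V2566, V2573 or V2574 of HFpEF+SGLT2i ended the call (adjusted p 0.0501 to 0.129). Tomm34 was next with 0.20 ± 0.07 (adjusted p = 0.0866), at 15.5, 16.2 and 17.4 CPM in non_failing and 14.4, 17.7 and 22.2 CPM with empagliflozin, where 8 of 11 mice exceeded the narrow non_failing range. It was called without V2562 (adjusted p = 0.0280). The members' median was 0.03, beside 0.01 for all genes, and 13 of 23 were above 0. Summed cardiomyocyte markers had medians of 26277 TPM with empagliflozin and 31376 TPM in non_failing. The brown adipocyte list, carried by Cidea alone, ran from 24.9 to 32.6 against 13.2 to 18.7 TPM. Hepatocyte markers summed to 0.178 to 5.12 TPM with the drug and 15.4 to 291.1 TPM in non_failing. Their part in the call was not tested.

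Because paralogues are measured in the same library, their ratio does not depend on the scaling between libraries. The ratio of Tomm40 to Tomm40l, in TPM, was lower in all 3 HFpEF groups than in non_failing. It was 1.57, 2.05 and 2.18 (lowest, median, highest) in non_failing, 1.35, 1.52 and 1.78 in HFpEF+Veh, 1.45, 1.66 and 2.05 in HFpEF+TYA-018 and 1.41, 1.65 and 1.93 in HFpEF+SGLT2i. In every non_failing mouse Tomm40 was the more abundant by at least 1.57-fold, and the ranges of the groups overlapped.

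On the log2 scale the mean ratio of the 8 non_failing mice was 0.96 ± 0.17 (SD). It was 0.63 ± 0.12 in the 8 mice of HFpEF+Veh, 0.73 ± 0.14 in the 11 of HFpEF+TYA-018 and 0.69 ± 0.14 in the 11 of HFpEF+SGLT2i. Two-sided exact permutation tests over mice gave p = 0.00124 for HFpEF+Veh (difference -0.34, 8 of 8 mice below the non_failing mean), p = 0.00556 for HFpEF+TYA-018 (-0.24, 10 of 11) and p = 0.00150 for HFpEF+SGLT2i (-0.27, 11 of 11). Adjusted by Benjamini-Hochberg over the 18 ratio tests run, these were 0.0135, 0.0333 and 0.0135. The 3 comparisons share the non_failing mice and are not independent of one another. Without V2523 the vehicle difference was again -0.34 (exact permutation p = 0.00233), and from counts in place of TPM it was -0.36 (p = 0.000155). Cell-type markers moved with these groups: cardiomyocyte sums had a median of 31376 TPM against 26159 TPM in HFpEF+Veh, 27572 TPM in HFpEF+TYA-018 and 26277 TPM in HFpEF+SGLT2i. The brown adipocyte list, carried by Cidea alone, was at most 18.7 TPM against at least 20.4 TPM in the HFpEF groups. Hepatocyte markers summed to 15.4 TPM or more in every non_failing library and to at most 5.12 TPM in the drug groups. Their part in the ratio was not tested.

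Against HFpEF+Veh, the ratio in the drug groups passed no test (differences 0.10 for HFpEF+TYA-018 and 0.06 for HFpEF+SGLT2i, exact permutation p = 0.122 and 0.30). The contrast of Tomm40 and Tomm40l in edgeR ran the same way: in HFpEF+Veh the log2 fold change was -0.21 for Tomm40 and 0.16 for Tomm40l, each without a call. The ratio of Timm17a to Timm17b, the alternative channel partners of Timm23, varied in TPM from 2.12 to 9.03 among mice. It passed the test in none of the 6 comparisons (permutation p from 0.304 to 0.957). From counts in place of TPM it varied less, from 3.04 to 5.63, and again passed in none (permutation p from 0.386 to 0.935). In TPM without V2571 and V2572, the difference of this ratio in HFpEF+SGLT2i moved from 0.13 to 0.31 against non_failing (exact permutation p = 0.0472, adjusted p = 0.169). Against HFpEF+Veh it moved from 0.26 to 0.43 (exact permutation p = 0.0545, adjusted p = 0.169). That of Timm8a1 to Timm8b lay between 0.0660 and 0.106, with differences of at most 0.11 and a smallest exact permutation p of 0.0564 (adjusted p = 0.254), for HFpEF+TYA-018 against non_failing. From counts in place of TPM that difference was 0.14 (exact permutation p = 0.0107, adjusted p = 0.0482).

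**Figure D4:**
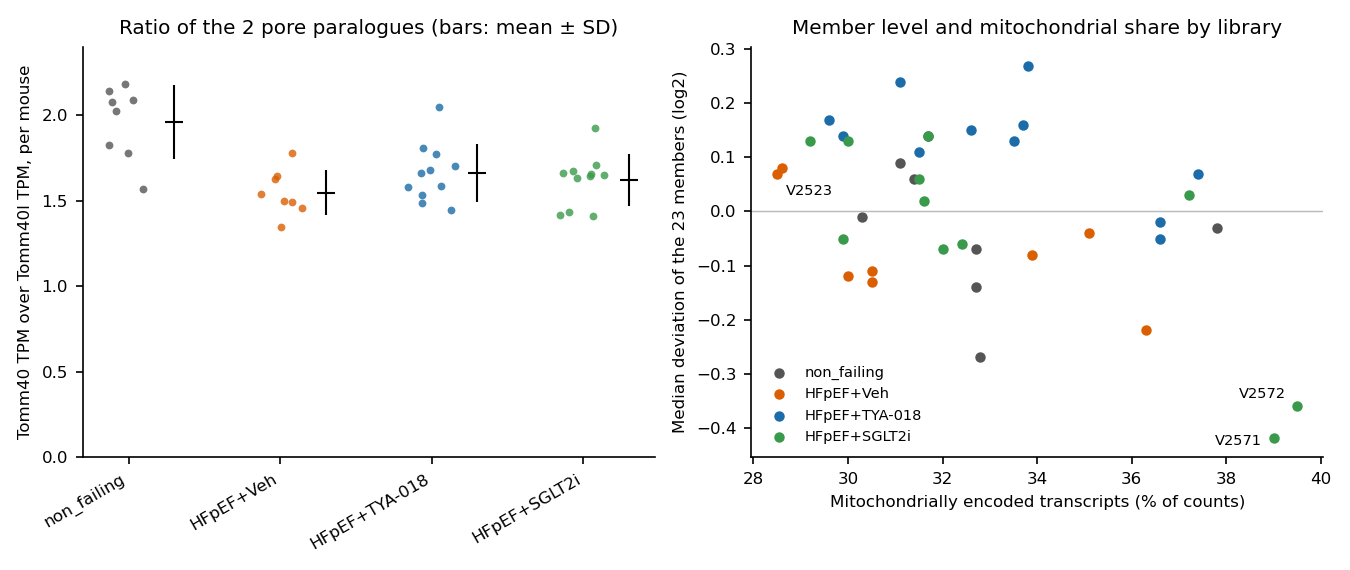
Left, Tomm40 TPM over Tomm40l TPM in each mouse by group, with the mean and 1 SD. Right, for each library, the median deviation of the 23 members from their means over all mice (log2) against the percent of counts from mitochondrially encoded genes, with V2523, V2571 and V2572 named. The non_failing ratios centre near 2.05 and those of HFpEF+Veh near 1.52, and V2571 and V2572 lie lowest at the right edge.

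Within groups, many members varied together from mouse to mouse. After each group's mean was removed, 204 of the 253 pairs of members had a positive correlation of log2 CPM over the 38 mice, with a median r of 0.51, and 1 component held 57.9% of their variance. Its loadings were highest for Timm23 (0.42), Timm17a (0.36), Tomm70a (0.35) and Timm21 (0.34). The closest pair was Timm17a and Timm23, partners in the TIM23 channel (r = 0.97, Spearman's rho 0.95). Without V2550 and V2571, the mice farthest from the median, r was 0.96.

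A smaller set of Tomm6, Tomm7, Timm9, Timm10b and Timm13 had loadings between -0.06 and 0.01 on that component and followed one another instead, with r from 0.52 (Timm9 and Timm13) to 0.77 (Timm13 and Tomm6). Without V2532 and V2562 those values were 0.28 and 0.70. Tomm34 ran opposite to most members, with r = -0.83 against Tomm70a and -0.77 against Timm23. These values are descriptions: the points share their library, its depth and its makeup of cells, the members were set apart after the values were seen, and the same figures for other genes were not computed.

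Measures of the libraries moved with this component. Its score had r = -0.71 with the share of mitochondrially encoded transcripts (rho -0.64, and -0.60 for r without V2571 and V2572), r = 0.70 with the summed cardiomyocyte markers (rho 0.64, and 0.70 without V2507 and V2571) and r = 0.54 with total counts (rho 0.51, and 0.51 without V2532 and V2564). The part of these measures in the members' covariation was not tested. Across groups the share of mitochondrially encoded transcripts overlapped widely, with medians of 32.2% in non_failing, 30.5% in HFpEF+Veh, 33.5% in HFpEF+TYA-018 and 31.7% in HFpEF+SGLT2i.

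**Figure D5:**
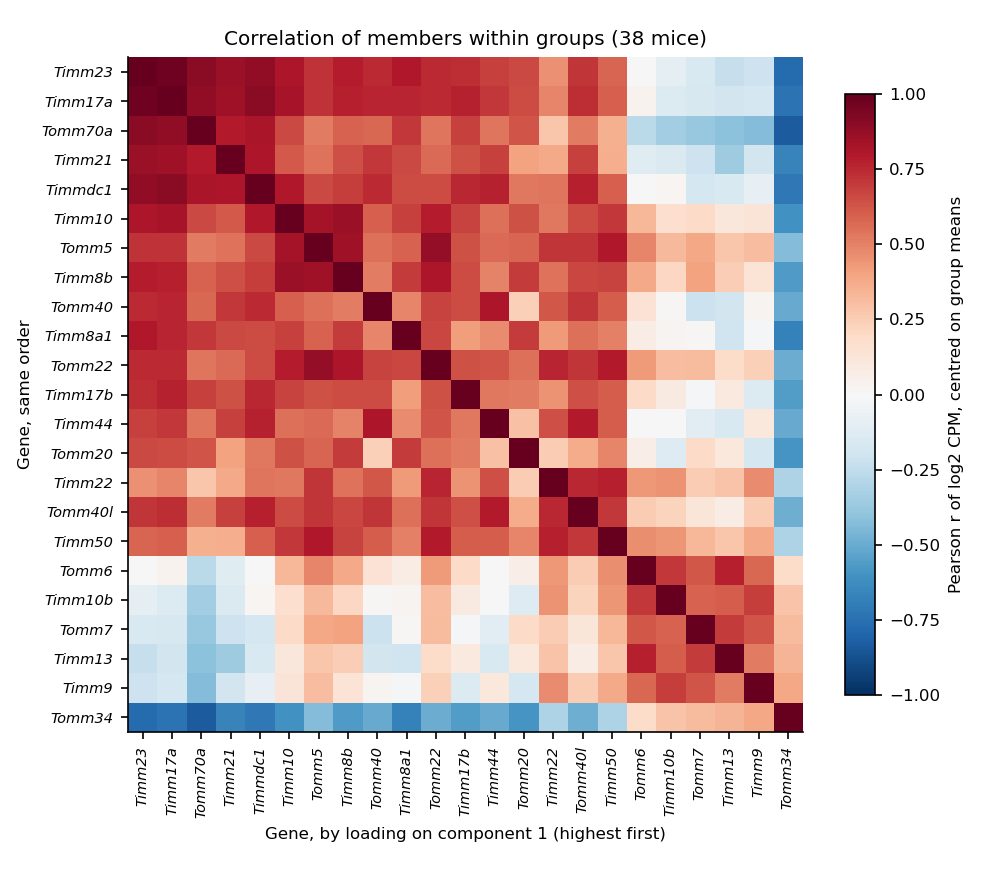
Pearson's r of log2 CPM between each pair of the 23 members over 38 mice after each group's mean was removed, genes in the order of their loading on the first component. A large positive block runs from Timm23 to Timm50, a smaller one holds Tomm6, Timm10b, Tomm7, Timm13 and Timm9, and Tomm34 is negative against the large block, down to -0.83 with Tomm70a.

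The wider import machinery was followed in 34 further genes, a list put together by hand: the import motor, the sorting and assembly machinery of the outer membrane, oxidative folding in the intermembrane space, processing peptidases, matrix chaperones, quality control proteases, the carrier translocase partner Agk and the inner membrane insertase Oxa1l. In HFpEF+TYA-018 against HFpEF+Veh their median log2 fold change was 0.17 and 32 of 34 were above 0, where 48.2% of all genes were. Medians and counts for this list come from the edgeR fit with TMM factors alone. They were not repeated under another scaling or without V2523. EdgeR gave 0 calls (1.93% of all genes) and 9 unadjusted p under 0.05 (26.5%, against 17.5% of all genes). The matrix cochaperonin Hspe1 had the lowest p (0.28 ± 0.08, adjusted p = 0.0690). In HFpEF+SGLT2i against HFpEF+Veh the median was 0.13 and 30 of 34 were above 0. There were 0 calls (0.85% of all genes) and 0 unadjusted p under 0.05 (10% of all genes had one). The outer membrane insertase Mtch2 had the lowest p (0.14 ± 0.07, adjusted p = 0.522).

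Between the drugs the median of these 34 was 0.01 and 19 were above 0, with 0 calls (0% of all genes). There were 6 unadjusted p under 0.05 (17.6%, against 13.2% of all genes), led by Romo1 (0.23 ± 0.08, adjusted p = 0.211). HFpEF+Veh against non_failing gave a median of -0.12 with 8 of 34 above 0, where 52.3% of all genes were. There were 0 calls (3.15% of all genes) and 5 unadjusted p under 0.05 (14.7%, against 15.9% of all genes). Mtch1, a paralogue of Mtch2, led there with a sign opposite to the median (0.23 ± 0.07, adjusted p = 0.0680), and it was the 1 call of the list in HFpEF+TYA-018 against non_failing (0.21 ± 0.07, adjusted p = 0.0461), beside 7.39% of all genes called. There 3 of 34 had an unadjusted p under 0.05 (8.82%, against 22.0% of all genes). That call was lost in 23 of 38 fits without 1 library, with an adjusted p of up to 0.118 without V2555. HFpEF+SGLT2i against non_failing gave 0 calls, where 6.45% of all genes were called. The median was -0.02 and 6 had an unadjusted p under 0.05 (17.6%, against 19.6% of all genes), the lowest for the motor gene Dnajc19 (-0.27 ± 0.10, adjusted p = 0.0954).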

How the data were processed

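Poly(A) RNA from 38 left ventricles was quantified by the authors with Salmon (1.6.0 in the submitters' processing notes) and summed to genes. They deposited expected counts, TPM and effective transcript lengths (in bases) per gene and library. The labels name a human genome build, whereas gene identifiers are of mouse, and the methods name GENCODE M25. Expected counts were rounded and fitted with edgeR 4.0.16 (R 4.3.3): TMM factors, a filter on low counts (13765 genes kept), 1 quasi-likelihood model of the 4 groups, and Benjamini-Hochberg adjustment over all genes. DESeq2 1.42.0 and limma 3.58.1 on log2(TPM + 1) were alternatives. Paralogue TPM ratios were compared by two-sided permutation tests, exact except between the drug groups (100000 permutations). The edgeR fit was tested on simulated counts with known fold changes, and the other steps were not tested in this way. No libraries held identical counts. Depth was 21451631 to 59280407 counts per library. Values per library are given for called members, for those with the smallest p until 8 are reached, and for the most abundant member of each role. Of the further import genes, the called ones are named, or else the one with the smallest p. Members, lists and tests were chosen with earlier results of these data known.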

Additional observations from a re-analysis of the deposited data

Results flagged for a closer look

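In groups of 8 mice, a single low library stood apart for 2 members. Timm17b was lowest in non_failing V2507 at 9.38 TPM, with the next mouse at 11.5 TPM, a gap of 0.565 of the group's range and above the critical value of Dixon's test. Timm9 was lowest in HFpEF+Veh V2532 at 7.48 TPM, with the next mouse at 11.4 TPM, a gap of 0.584 of the range, above the same value. Chance alone marks about 1 group in 20, and 54 sets of values were looked at, of which 2 were marked. The groups of 11 mice were not examined in this way.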

How the results depend on the processing

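No paired analysis was possible because every mouse has its own number and none is shared between groups. For HFpEF+Veh against non_failing, limma on log2(TPM + 1) called 1 member (3.24% of all genes). For HFpEF+TYA-018 against HFpEF+Veh, where edgeR called 0, DESeq2 called 3 (524 of 21871 genes), leaving out V2571 and V2572 gave 4 (3.15% of all genes), leaving out V2523, V2571 and V2572 gave 9 (4.22%), and leaving out single libraries gave 0 to 2. HFpEF+SGLT2i against HFpEF+Veh gave 1 without those 3 libraries (2.18%). Between the drugs DESeq2 called 3 (0.841%). For HFpEF+TYA-018 against non_failing, where 7.39% of all genes were called, the 4 calls became 1 under library size alone (6.57%), 2 with a length offset (6.18%), 1 under limma (4.29%), 3 under DESeq2 size factors in edgeR (7.29%), no filter (4.46%) or only the 2 groups compared (7.27%), 5 without V2571 and V2572 (8.41%), and 2 to 5 without single libraries. For HFpEF+SGLT2i against non_failing, where 6.45% of all genes were called, the 1 call became 0 under DESeq2 size factors in edgeR (6.33%), library size alone (4.77%), no filter (4.15%), or only the 2 groups compared (6.08%), and 0 to 1 without single libraries. For the 42 of 138 pairs of member and comparison with an unadjusted p under 0.05, 1874 fold changes over all settings kept their direction and side of the threshold, 40 passed it, 59 fell short of it and 1 turned: Timm17b in HFpEF+TYA-018 against HFpEF+Veh, -0.04 under limma. Of the other 96 pairs, 25 turned under limma, 20 under library size alone, 6 with a length offset, 8 without V2571 and V2572, 9 without all 3 libraries, and at most 6 in any other setting. Of the paralogue ratios 49 kept theirs, 1 passed the threshold (Timm8a1 over Timm8b in HFpEF+TYA-018 against non_failing, 0.14 from counts) and 4 turned. Between the drugs, from counts, Timm17a over Timm17b was 0.01, Timm8a1 over Timm8b -0.01 and Tomm40 over Tomm40l -0.01. In HFpEF+SGLT2i against HFpEF+Veh, Timm8a1 over Timm8b was -0.01 without V2571 and V2572. The causes were not tested. The sets with V2571 and V2572 left out were chosen after seeing the data.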
